A study of Homo sapiens with 4 samples.

Results

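Matrix metalloproteinases (MMPs) and their tissue inhibitors (TIMPs) were examined in NUGC3, an established human stomach cancer cell line, with a knockdown of the transcription factor MYC. The 9 genes described are MMP1, MMP7, MMP9, MMP10, MMP13, MMP14, TIMP1, TIMP2 and TIMP3, out of 53777 Ensembl gene rows in the table, and each was found once by its symbol. MMP1 and MMP9 were picked on the values reported here, because the knockdown libraries disagreed on them, so their knockdown values are a description and carry no test. The other 7 were taken as members of the same families. The groups were MYC knockdown NUGC3 cells (2 libraries, replicates 1 and 2) and wild-type NUGC3 cells (2 libraries, replicates 1 and 2). The labels state neither how the knockdown was made nor how long it lasted, nor whether the wild-type cells carried a control construct. They also leave unsaid whether the libraries of a group stem from separate cultures, so p-values may measure technical spread alone.

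MMPs are zinc-dependent endopeptidases that cut proteins of the extracellular matrix and of the cell surface. Most are made as inactive precursors and are switched on when the propeptide is removed, and the TIMPs block the active site of the mature enzymes. Epithelial tumour cells make some of them themselves, while others come mainly from fibroblasts and leukocytes, and genes of both families are known to respond to AP-1 factors, inflammatory cytokines and growth factors. Values are FPKM, fragment counts scaled for transcript length and library size, which compare genes per length. Log2 differences are on the scale log2(FPKM + 1), which understates the change of low genes.

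The knockdown libraries lay further apart than the wild-type libraries, with a median absolute log2 difference of 0.20 for the knockdown pair and 0.08 for the wild-type pair. Of 37 interferon-stimulated genes, 33 exceeded the wild-type mean by at least 1 on the log2 scale in MYC knockdown replicate 1, and 0 did so in replicate 2. The share of all genes past this mark is not given here. For the 32 tested ones the median differences were 1.94 and 0.12 in replicates 1 and 2, against 0.07 and 0.0085 over all genes tested. The list was written with earlier results of these data known. MYC itself stood at 65.0 and 75.8 FPKM in the knockdown libraries, against 82.9 and 82.0 FPKM in wild-type cells, a log2 change of −0.23 that missed the threshold (limma adjusted p = 0.237). All 9 epithelial markers passed the minimum of 1 FPKM in at least 2 libraries. KRT8, the highest of them, stood at 2488 and 2061 FPKM in knockdown, against 2031 and 2045 FPKM in wild type. The summed level of 10 macrophage markers lay between 0.59 and 0.99 FPKM in all libraries, with 5 of them at 0. That of 6 measured endothelial markers lay between 0.50 and 1.11 FPKM, with 2 of them at 0. The 10 fibroblast markers summed to 10.7 and 5.26 FPKM in knockdown, against 7.59 and 7.10 FPKM in wild type, mostly COL1A1, with COL1A2, COL3A1 and DCN at 0. Of 8 neutrophil markers, CSF3R, MPO and ELANE were at 0, and S100A9, which epithelial cells make too, held nearly all of the sum of 3716 and 2889 FPKM in knockdown, against 4436 and 4483 FPKM in wild type. The part of these lists in the members' values was not tested.

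In wild-type cells TIMP1, TIMP2 and the membrane-bound enzyme MMP14 led the families. By mean FPKM the order was TIMP1 (202), TIMP2 (85.4), MMP14 (78.1), MMP1 (34.6), TIMP3 (18.4), MMP9 (10.4), MMP13 (0.665), MMP10 (0.395) and MMP7 (0.02). Neighbours in this order did not overlap between the 2 wild-type libraries, apart from MMP13 and MMP10, which met at 0.57 FPKM. TIMP2 was only 1.09 times as high as MMP14, the closest of the pairs that were apart. Of 23 MMP genes in the table, 7 reached 1 FPKM in at least 2 libraries and 6 were at 0 in all 4.

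Replicate 2 of the MYC knockdown exceeded replicate 1 for all 9 members, and for 8 of them the highest of the 4 values was that of MYC knockdown replicate 2, MMP9 being the exception. Of the 12953 genes tested, 39.3% had the higher knockdown value in replicate 2. The direction and size of the gap between these libraries chose MMP1 and MMP9, so nothing is read from the count. Against wild type, the groups were apart with knockdown higher for TIMP1, TIMP2, TIMP3 and MMP13, which are 4 of the 7 members tested, beside 33.4% of all genes tested, and with knockdown lower for MMP9, beside 25.2%. MMP13 was tested only because it is high in knockdown and MMP9 was picked on these values, so the counts are a description. With equal column sums the shares over all genes were 44.7% and 18.1%, and the members' counts did not change. The remaining 4 of the 9 members overlapped between the groups, the 2 untested ones among them. With limma over all genes and Benjamini-Hochberg adjustment, 0% of the genes passed 0.05, and 3354 genes had an unadjusted p under 0.05. Without MYC knockdown replicate 1 it called 3384 genes and without replicate 2 it called 3413. None of the 5 members for which a test is given (MMP13, MMP14, TIMP1, TIMP2 and TIMP3) therefore passed, and an exact permutation test of 2 against 2 libraries cannot give a two-sided p under 0.333.

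**Figure D1:**
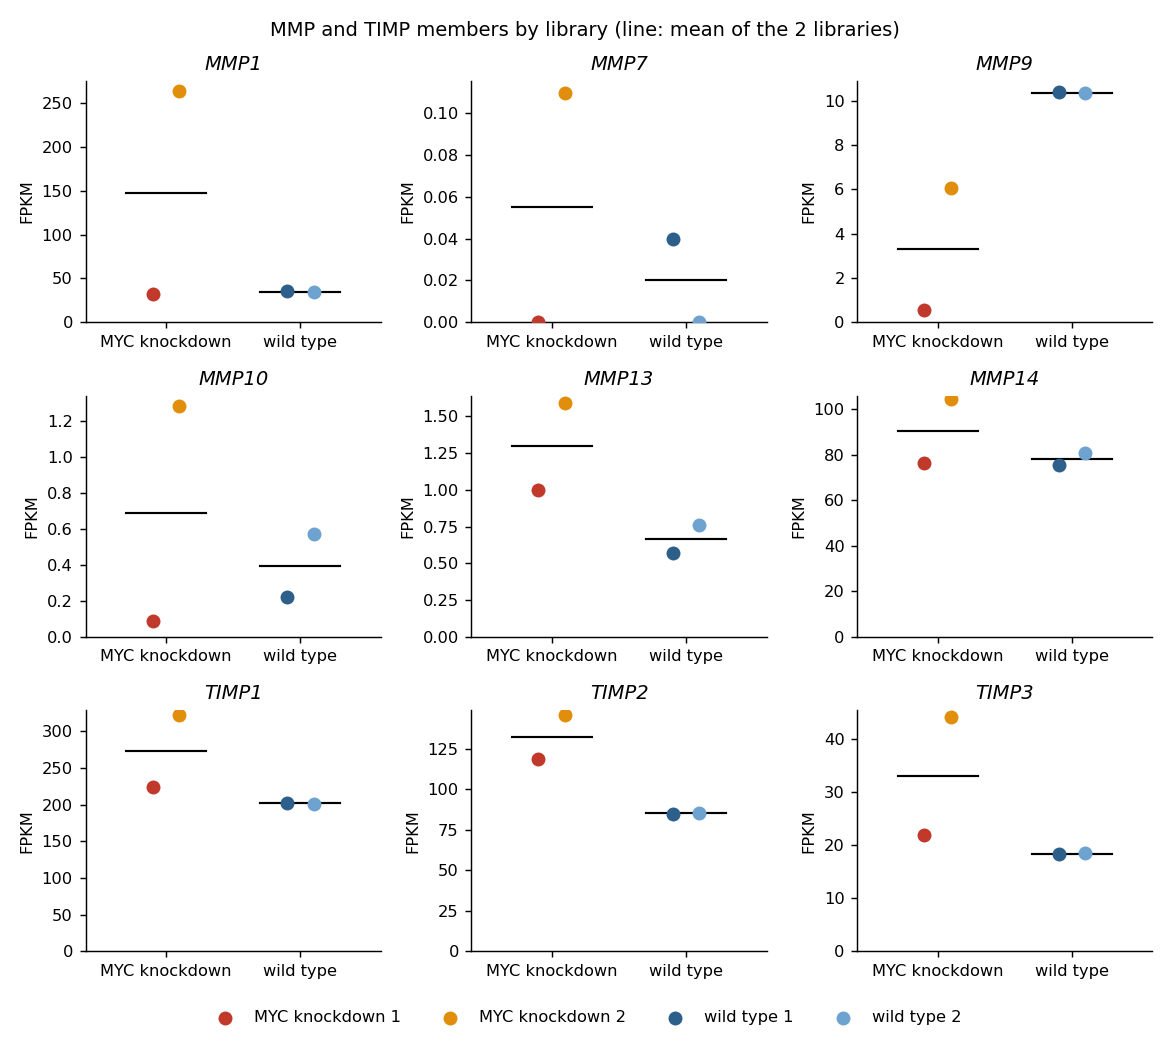
FPKM of each member (linear axis from 0, own scale per panel) in MYC knockdown libraries 1 and 2 and wild-type libraries 1 and 2, as points, with a line at the mean of each group. MMP1 stands at 32.1 and 263.8 FPKM in the knockdown libraries, while its wild-type points, at 35.0 and 34.2 FPKM, nearly coincide.

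The collagenases, which cleave the triple helix of fibrillar collagens, were MMP1 and MMP13. MMP1 (ENSG00000196611; chromosome 11, 102789920 to 102798160, minus strand; coordinates here and below are those of GENCODE release 29 on GRCh38 for the same Ensembl ID, since the sources used here do not name the build behind the table) stood at 32.1 and 263.8 FPKM in knockdown replicates 1 and 2, against 35.0 and 34.2 FPKM in wild type. MYC knockdown replicate 1 was thus just below wild type, at 0.925 times its mean, and MYC knockdown replicate 2 was 7.62 times the wild-type mean. The groups overlapped, and the mean of 148 ± 164 FPKM for the MYC knockdown, beside 34.6 ± 0.580 FPKM for wild type (SD, n = 2 each), describes neither knockdown library. The log2 change of MMP1 was 1.39 over both knockdown libraries and −0.11 without replicate 2. The gap between the knockdown libraries was 3.0 on the log2 scale, a size that 7 of the 12953 genes tested reached in that direction, MMP1 included. Since MMP1 was picked because these libraries disagree, that count is a description. A gap of at least 1 with MYC knockdown replicate 2 higher was seen in 1.51% of genes, and with MYC knockdown replicate 2 lower in 1.71%.

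MMP13 (ENSG00000137745; chromosome 11, 102942995 to 102955734, minus strand), collagenase-3, was scarce, at 1 and 1.59 FPKM in the knockdown libraries, against 0.57 and 0.76 FPKM in the wild-type libraries. Both knockdown values were the higher ones. MMP13 reached 1 FPKM in the 2 knockdown libraries alone and so entered the test only through the group where it is high. The difference was 0.45 on the log2 scale, with a standard error of 0.23 (limma adjusted p = 0.282). It was 0.27 without MYC knockdown replicate 2 and 0.84 with a pseudocount of 0.1, and passed under neither.

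The gelatinase MMP9 (ENSG00000100985; chromosome 20, 46008908 to 46016561, plus strand), which degrades basement membrane collagen and denatured collagen, was at 0.54 and 6.04 FPKM in knockdown replicates 1 and 2, against 10.4 and 10.3 FPKM in wild type. Both knockdown libraries were below both wild-type libraries, but by very different amounts. The wild-type mean was 19.2 times the value of MYC knockdown replicate 1 and 1.72 times that of MYC knockdown replicate 2. On the log2 scale MMP9 lay at −2.88 from wild type in MYC knockdown replicate 1, a value as low in 4 of 12953 genes, MMP9 included, and at −0.69 in MYC knockdown replicate 2. Since MMP9 was picked because these libraries disagree, that count is a description. The mean was 3.29 ± 3.89 FPKM for the MYC knockdown, beside 10.4 ± 0.0495 FPKM for wild type (SD, n = 2 each), and the log2 change over both was −1.79. MMP2, the other gelatinase, was at 0.02 and 0.02 FPKM in knockdown and at 0 in both wild-type libraries.

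The largest differences of MMP1 and MMP9 from wild type were in opposite directions and in different knockdown libraries. MMP9 was below wild type in both of these libraries, and MMP1 and MMP9 were picked on these values. MMP1 was displaced in MYC knockdown replicate 2 and near wild type in replicate 1, and MMP9 was displaced most in replicate 1. The interferon-stimulated genes were displaced in replicate 1 as well, and whether that bears on MMP9 was not tested. MYC was lower in MYC knockdown replicate 1, at 65.0 FPKM, than in replicate 2, at 75.8 FPKM, and its part in the gaps was not tested.

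**Figure D2:**
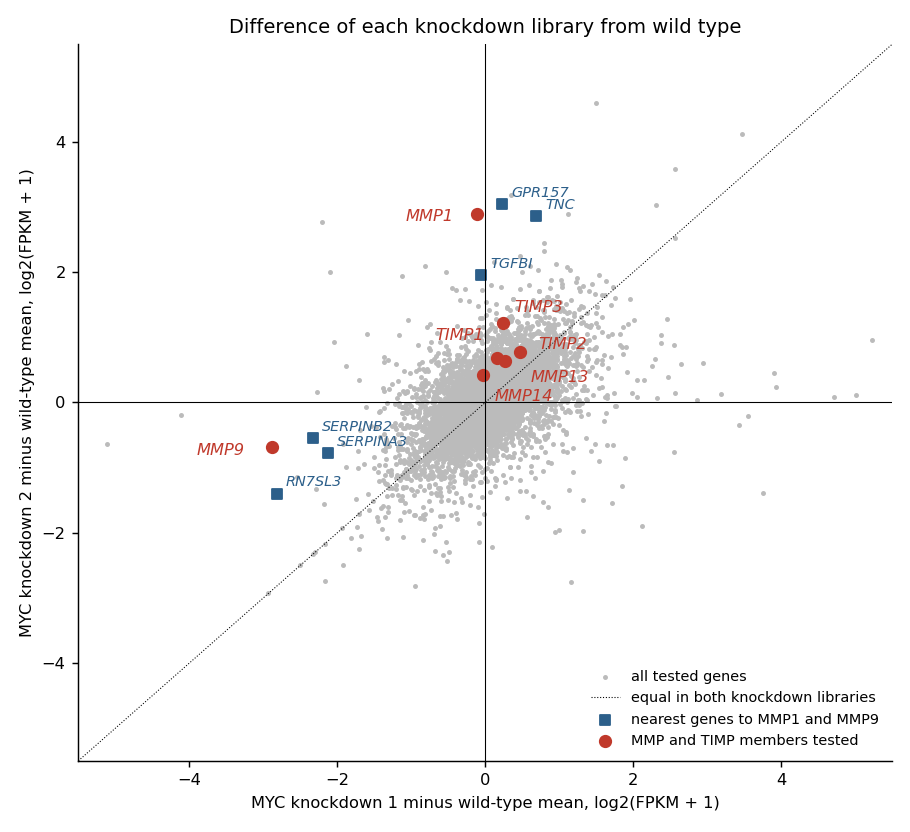
Difference from the wild-type mean on the log2(FPKM + 1) scale in MYC knockdown 1 (x axis) and MYC knockdown 2 (y axis) for the 12953 genes tested (grey), the 7 members tested (red circles) and the 3 genes nearest to MMP1 and to MMP9 (blue squares). MMP1 lies at −0.11 and 2.89 and MMP9 at −2.88 and −0.69, and all red circles lie above the dotted line of equal difference.

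Among 9586 tested genes with a mean of at least 5 FPKM, those whose pair of differences from wild type was nearest to that of MMP1 were GPR157, TNC and TGFBI, at distances of 0.36, 0.79 and 0.94 on the log2 scale over the 2 knockdown libraries. GPR157, a G protein-coupled receptor, stood at 2.65 and 24.7 FPKM in knockdown, against 2.17 and 2.09 FPKM in wild type. TNC, the matrix glycoprotein tenascin-C, stood at 9.39 and 46.1 FPKM, against 5.89 and 5.07 FPKM in wild type. TGFBI, a secreted matrix protein induced by TGF-beta, stood at 2.60 and 13.5 FPKM, against 2.26 and 3.29 FPKM in wild type. All had their highest value in MYC knockdown replicate 2. TGFBI lay within the wild-type range in replicate 1, while GPR157 and TNC lay above it. These genes were chosen by their nearness to MMP1 on the same values, so the shared pattern follows from the choice.

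Nearest to MMP9 were SERPINB2, RN7SL3 and SERPINA3, at distances of 0.57, 0.71 and 0.76. SERPINB2, plasminogen activator inhibitor 2, stood at 9.62 and 35.5 FPKM in knockdown, against 51.6 and 53.5 FPKM in wild type, and SERPINA3, the inhibitor alpha-1-antichymotrypsin, at 23.3 and 61.0 FPKM, against 103.8 and 106.5 FPKM in wild type. Both were lower in the 2 knockdown libraries and lowest in replicate 1. They were chosen by their nearness to MMP9 on the same values, so this pattern follows from the choice. RN7SL3, one of several near-identical signal recognition particle RNA genes, stood at 4.17 and 12.8 FPKM, against 24.1 and 51.9 FPKM in wild type. Its wild-type values lay far apart, and its reads may be split among copies, so its likeness is uncertain.

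The membrane-type enzyme MMP14 (ENSG00000157227; chromosome 14, 22836557 to 22849027, plus strand), which cuts collagen at the cell surface and activates MMP2 precursor together with TIMP2, was at 76.5 and 104.5 FPKM in knockdown, against 75.3 and 80.8 FPKM in wild type. MYC knockdown replicate 1 lay within the wild-type range and replicate 2 above it. On the log2 scale it differed by 0.19, with a standard error of 0.17 (limma adjusted p = 0.506). Without MYC knockdown replicate 2 it was −0.029, on the other side of 0, and without replicate 1 it was 0.42 (limma adjusted p = 0.0265).

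The stromelysin MMP10 (ENSG00000166670; chromosome 11, 102770503 to 102780628, minus strand), a protease of broad specificity that can activate collagenase precursors, was near the bottom of the range, at 0.09 and 1.28 FPKM in knockdown, against 0.22 and 0.57 FPKM in wild type. The knockdown values lay on either side of the wild-type pair, with a gap of 1.06 on the log2 scale, and MMP10 was the last of the 3 members with a gap of at least 1, after MMP1 and MMP9. Matrilysin, MMP7 (ENSG00000137673; chromosome 11, 102520508 to 102530753, minus strand), a small enzyme made by many epithelial tumours, was at 0 and 0.11 FPKM in knockdown, against 0.04 and 0 FPKM in wild type and was the lowest member. Both fell under the minimum of 1 FPKM in at least 2 libraries and were not tested. Of the 9 members, 7 passed that minimum.

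MMP1, MMP7, MMP10 and MMP13 belong to a cluster of 9 MMP genes on chromosome 11 (102520508 to 102955734, a span of 435 kb), where 9.29 kb separate MMP10 from MMP1. Along the cluster, MMP20, MMP27 and MMP8 were at 0 in all libraries, and MMP12, with a different Ensembl ID in release 29, reached at most 0.11 FPKM. MMP3, another stromelysin and the neighbour of MMP1 on its other side, was at 0.43 and 1.9 FPKM in knockdown, against 0.70 and 1.09 FPKM in wild type. MMP10, MMP1 and MMP3, which lie next to each other, each had the lowest of their 4 values in MYC knockdown replicate 1 and the highest in replicate 2, but MMP1 alone stood above 2 FPKM. Outside the cluster, BIRC3 was at 44.0 and 43.5 FPKM in knockdown, against 44.5 and 44.3 FPKM in wild type, and DCUN1D5, at the other end, at 36.4 and 34.5 FPKM, against 50.4 and 50.3 FPKM in wild type. Neither had a gap between the knockdown libraries like that of MMP1. Of the words of 31 bases in the MMP10 transcript, 7.23% occur in MMP3 too, so fragments could be shared between that pair. No such word of the other 8 members occurs in another MMP or TIMP transcript. Transcribed opposite to MMP1 and MMP10, the pseudogene WTAPP1 was at 0.18 and 0.01 FPKM in knockdown and at 0 in both wild-type libraries. No gene that overlaps a member and is listed in the table exceeded 0.82 FPKM, the highest being SYN1, which runs opposite to TIMP1. Whether the counting used strand is not stated, so reads of such pairs cannot be told apart.

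**Figure D3:**
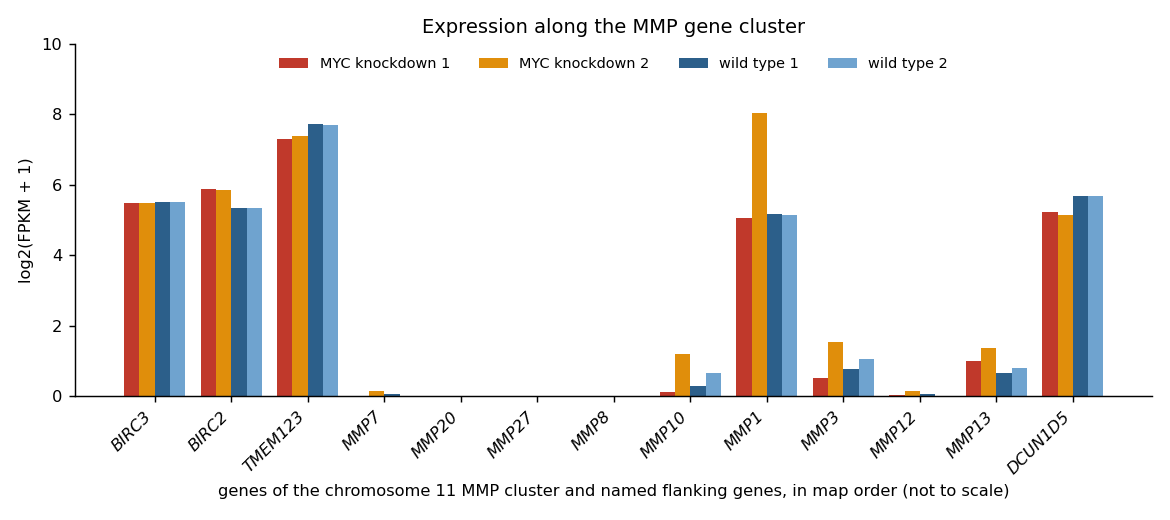
Expression, as log2(FPKM + 1), of the 9 MMP genes of the chromosome 11 cluster and 4 flanking genes in map order (x axis, not to scale), with bars for MYC knockdown 1 and 2 and wild type 1 and 2 from left to right. MMP1 is the tall bar group among otherwise low or silent MMP genes, and its MYC knockdown 2 bar, at 263.8 FPKM, stands above the others.

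The TIMPs stood higher in both knockdown libraries than in either wild-type library, and TIMP1 and TIMP2 were the most abundant members in wild type. TIMP1 (ENSG00000102265; chromosome X, 47582313 to 47586789, plus strand), a secreted inhibitor that also binds the precursor of MMP9, was at 224.1 and 322.5 FPKM in knockdown, against 202.0 and 201.1 FPKM in wild type. TIMP2 (ENSG00000035862; chromosome 17, 78852977 to 78925387, minus strand), which binds MMP14 and the MMP2 precursor, was at 118.6 and 145.9 FPKM in knockdown, against 85.1 and 85.6 FPKM in wild type. TIMP3 (ENSG00000100234; chromosome 22, 32801701 to 32863043, plus strand), which stays bound to the matrix and also inhibits ADAM proteases, was at 21.9 and 44.1 FPKM in knockdown, against 18.3 and 18.5 FPKM in wild type. For each of the 3 genes the wild-type libraries lay close together, MYC knockdown replicate 1 was above them and MYC knockdown replicate 2 was higher again.

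None of these differences passed the test over all 4 libraries. TIMP2 came nearest, with means of 132 ± 19.3 FPKM in knockdown and 85.4 ± 0.361 FPKM in wild type (SD, n = 2 each) and a log2 change of 0.62 with a standard error of 0.12 (limma adjusted p = 0.0750). TIMP1 differed by 0.41 with a standard error of 0.18 (limma adjusted p = 0.241) and TIMP3 by 0.73 with a standard error of 0.33 (limma adjusted p = 0.247). The sizes rest on MYC knockdown replicate 2 in part: without it the log2 changes were 0.15 for TIMP1, 0.47 for TIMP2 and 0.24 for TIMP3, and without MYC knockdown replicate 1 they were 0.68, 0.77 and 1.22. In these fits the lone knockdown library is assumed to vary like the wild-type pair. TIMP1, TIMP2 and TIMP3 then passed 0.05 without replicate 1 (limma adjusted p = 0.00842, 0.00842 and 0.0077), and TIMP2 alone passed without replicate 2 (limma adjusted p = 0.0141). TIMP4 and RECK, a membrane-anchored MMP inhibitor, were at 0 in all libraries.

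The summed level of the 6 MMPs was 110.1 and 377.3 FPKM in knockdown, against 121.6 and 126.7 FPKM in wild type, and that of the 3 TIMPs was 364.6 and 512.5 FPKM in knockdown, against 305.4 and 305.2 FPKM in wild type. The ratio of the TIMP sum to the MMP sum was 3.31 and 1.36 in the knockdown libraries, against 2.51 and 2.41 in wild type, so the knockdown libraries lay on opposite sides of wild type. That split rests on MMP1, which was picked on its gap between them. Without MMP1, a choice made after the values were seen, the ratio was 4.67 and 4.51 in the knockdown libraries, against 3.53 and 3.30 in wild type, and both knockdown libraries lay above wild type. MMP1 made up 26.6% and 68.0% of the FPKM of all 23 MMP genes in knockdown, against 26.9% and 25.0% in wild type, and MMP14 63.5% and 26.9%, against 57.8% and 59.1% in wild type. These are RNA levels and do not measure protein or enzyme activity.

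**Figure D4:**
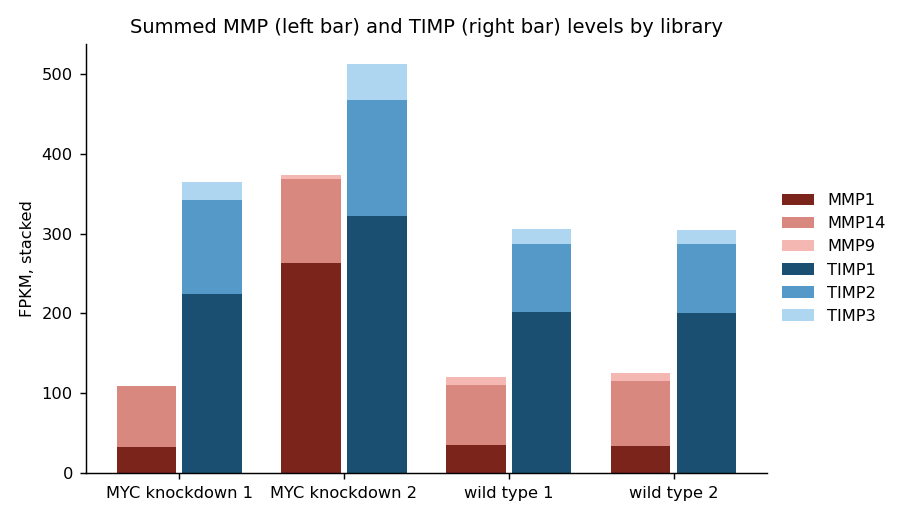
Stacked FPKM of MMP1, MMP14 and MMP9 (left bar) and of TIMP1, TIMP2 and TIMP3 (right bar) in each library, with the MYC knockdown libraries left of the wild-type libraries. MMP7, MMP10 and MMP13 are too low to draw. The MMP bar of MYC knockdown 2 is set apart by MMP1, at 263.8 FPKM.

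Promoter sequence was held by the RefSeq table (GRCh38.p14) for 5 of the 9 members, namely MMP7, MMP10, MMP14, TIMP1 and TIMP3, and was read as the 250 bases before the start that RefSeq annotates. RefSeq and GENCODE 29 place some starts differently, so the end of the window lies inside the GENCODE gene by 123 bases for TIMP1, 28 for MMP14, 6 for MMP7 and 4 for TIMP3. The windows of MMP7 and MMP10 are shown as members of 1 cluster that differ in their range of values, and that of TIMP3 as the inhibitor with the widest gap between the knockdown libraries, 0.98 on the log2 scale. Searched on both strands were the AP-1 motif TGACTCA, the E-box CACGTG that MYC and MAX bind, the TATA motif TATAAA and the GC box GGGCGG, and capitals mark every match. They lie at chr11:102530748-102530997 on the minus strand (MMP7), chr11:102780629-102780878 on the minus strand (MMP10) and chr22:32801455-32801704 on the plus strand (TIMP3), written 5′ to 3′ along the gene.
MMP7: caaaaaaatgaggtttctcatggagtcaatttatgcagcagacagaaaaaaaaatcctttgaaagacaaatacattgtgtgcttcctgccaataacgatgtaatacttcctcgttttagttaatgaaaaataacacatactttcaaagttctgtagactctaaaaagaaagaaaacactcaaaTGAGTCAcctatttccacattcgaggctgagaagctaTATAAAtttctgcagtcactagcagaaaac
MMP10: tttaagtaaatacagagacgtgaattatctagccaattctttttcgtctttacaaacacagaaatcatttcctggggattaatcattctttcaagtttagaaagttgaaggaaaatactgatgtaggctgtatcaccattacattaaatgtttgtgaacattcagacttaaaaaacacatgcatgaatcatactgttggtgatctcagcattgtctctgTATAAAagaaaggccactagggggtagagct
TIMP3: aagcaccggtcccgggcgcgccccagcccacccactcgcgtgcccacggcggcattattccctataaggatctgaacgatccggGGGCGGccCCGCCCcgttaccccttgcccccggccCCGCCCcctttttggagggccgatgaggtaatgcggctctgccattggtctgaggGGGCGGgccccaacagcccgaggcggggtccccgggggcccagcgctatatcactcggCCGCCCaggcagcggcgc

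Counted from the RefSeq start, a TATA motif began 30 bases before MMP7 and 31 bases before MMP10, and MMP7 had an AP-1 motif 67 bases before its start, while the MMP10 window held none with these letters. TIMP1 had 2 GC boxes and TIMP3 had 5, and MMP14 had 1, with neither AP-1 nor TATA motif in any of these 3 windows. The E-box was found in 0 of the 5 windows. Over all 35116 promoter windows of the same length, 4.20% held the AP-1 motif, 6.34% the E-box, 10.7% the TATA motif and 42.6% the GC box. The GC content was 33.6% for MMP7 and 34.4% for MMP10, against 56.8%, 64.8% and 72.4% for MMP14, TIMP1 and TIMP3. Such a match is a description of the letters and does not show that a factor binds there.

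The rest of the pathway was read from 8 lists grouped by function, and 0 of their members passed 0.05 in limma in either direction. All of these lists were written with earlier results of these data known, so counts and medians from them are a description. With equal column sums the shares over all genes were 44.7% above and 18.1% below, and with the median of ratios 29.3% and 30.7%. The list counts were not recomputed for these scalings, so which of them lie near the share depends on the scaling. Among 17 tested substrates of the matrix and cell junctions, 14 had both knockdown values above wild type, beside 33.4% of all genes, and 1 had them below, beside 25.2%, with a median log2 change of 0.52 against 0.04 over all genes. FN1, fibronectin, stood at 949 and 1676 FPKM in knockdown, against 850 and 903 FPKM in wild type (limma adjusted p = 0.306). It was higher in each knockdown library and highest in MYC knockdown replicate 2. The member below was COL4A1, a basement membrane collagen chain named here after its values were seen, at 27.0 and 25.4 FPKM in knockdown, against 82.8 and 81.3 FPKM in wild type (limma adjusted p = 0.0556).

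Among genes of MMP activation and docking, 17 of 22 were tested, 8 lay above (33.4% of all genes) and 4 below wild type (25.2% of all genes) without overlap, and the median log2 change was 0.22. The number below is near the share over all genes. LCN2, the lipocalin that binds MMP9 in a complex, was at 1629 and 1199 FPKM in knockdown, against 1017 and 980 FPKM in wild type (limma adjusted p = 0.157). CD44, a hyaluronan receptor that holds MMP9 and MMP14 at the cell surface, was at 326.6 and 742.6 FPKM, against 365.3 and 376.5 FPKM in wild type. Like MMP1, it was just below wild type in MYC knockdown replicate 1 and highest in replicate 2. BSG, the MMP inducer basigin, was at 270.3 and 240.4 FPKM, against 291.9 and 284.1 FPKM in wild type (limma adjusted p = 0.279).

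All 17 AP-1, ETS and RUNX factors were tested, with 6 above (33.4% of all genes) and 7 below wild type (25.2% of all genes) without overlap and a median log2 change of 0.00092. RUNX2, counted among the 7, reached 1 FPKM in the wild-type libraries alone and so entered the test only through the group where it is high. The number above is near the share over all genes. FOS stood at 146.7 and 111.6 FPKM in knockdown, against 62.5 and 57.5 FPKM in wild type (limma adjusted p = 0.0569), and ETS1 at 77.7 and 63.6 FPKM, against 104.3 and 100.5 FPKM in wild type (limma adjusted p = 0.0896). FOSL1, the most abundant of them, stood at 280.1 and 392.5 FPKM, against 360.5 and 354.9 FPKM in wild type, and was below wild type in MYC knockdown replicate 1 and above it in replicate 2. The 10 NF-kB genes had 1 above (33.4% of all genes) and 3 below (25.2% of all genes), with a median of −0.01, and the number below is near the share over all genes. TNFAIP3, a feedback inhibitor, was at 114.6 and 117.5 FPKM in knockdown, against 112.6 and 118.5 FPKM in wild type.

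Of 12 tested cytokines and growth factors known to induce MMPs, 4 lay above (33.4% of all genes) and 5 below wild type (25.2% of all genes) without overlap, with a median of 0.09, and the number above is near the share over all genes. IL1A, interleukin-1 alpha, was at 433.4 and 512.7 FPKM in knockdown, against 964.8 and 971.7 FPKM in wild type (limma adjusted p = 0.0556), and IL1B at 381.3 and 685.7 FPKM, against 884.0 and 893.9 FPKM in wild type (limma adjusted p = 0.179). IL8 (CXCL8) was at 346.1 and 641.4 FPKM, against 473.6 and 483.8 FPKM in wild type, below wild type in MYC knockdown replicate 1 and above it in replicate 2. Of 9 tested ADAM and ADAMTS enzymes, the relatives with a disintegrin domain, 4 lay above (33.4% of all genes) and 3 below (25.2% of all genes), with a median of 0.19. ADAM9 and ADAM10, membrane sheddases, were at 171.0 and 195.6 FPKM and at 119.8 and 118.5 FPKM in knockdown, against 130.7 and 128.5 FPKM and 93.6 and 92.3 FPKM in wild type. Both were higher in each knockdown library, with limma adjusted p of 0.0723 for ADAM9 and 0.0750 for ADAM10. Among the other MMPs, TIMP4 and RECK, 3 of 19 were tested, and MMP15, a membrane-type MMP, was at 6.64 and 7.09 FPKM in knockdown, against 5.70 and 5.97 FPKM in wild type (limma adjusted p = 0.324). Of 32 tested interferon-stimulated genes, 20 lay above wild type, beside 33.4% of all genes, and 0 below, beside 25.2%. MX2 and IFI27, counted among the 20, reached 1 FPKM in the knockdown libraries alone. They entered the test only through the group where they are high, so the count is a description.

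**Figure D5:**
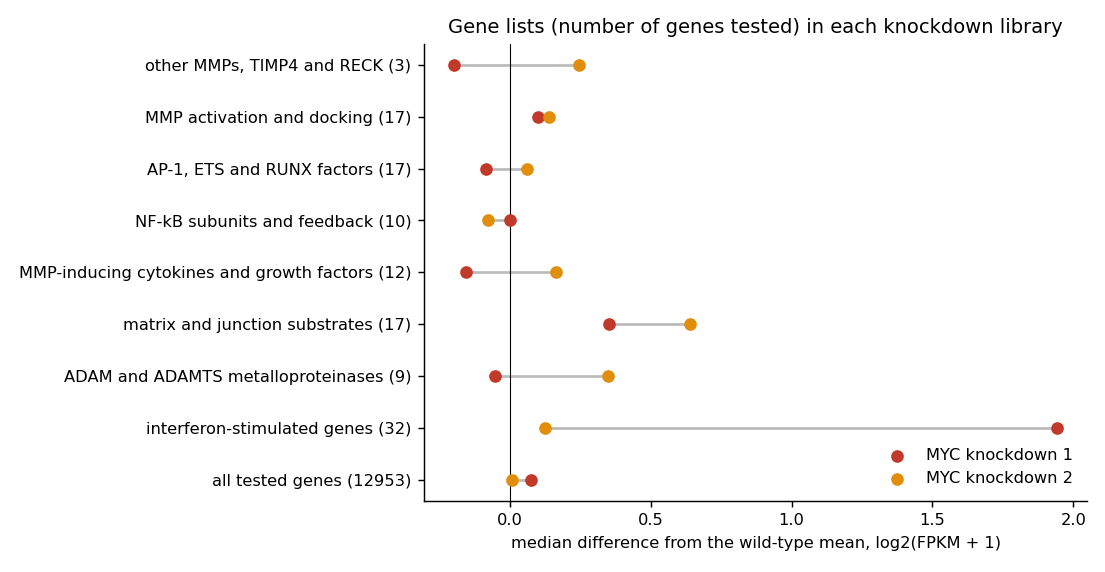
Median difference from the wild-type mean, on the log2(FPKM + 1) scale, of the 8 gene lists and of all genes tested, in MYC knockdown 1 (red) and MYC knockdown 2 (orange). The interferon-stimulated genes lie at 1.94 and 0.12 and the matrix and junction substrates at 0.35 and 0.64, against 0.07 and 0.0085 for all genes.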

How the data were processed

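The data are RNA levels of NUGC3 cells in 4 libraries, grouped and numbered by sample title. RNA was taken up in Trizol and libraries followed a standard Illumina protocol, per the labels' protocols. STAR and RSEM are named, per the submitters' processing notes. The sources used here do not give versions, genome build, annotation, strandedness or knockdown method.

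The deposited table holds 1 FPKM value per gene and library, rounded to 2 decimals by the authors. That unit was inferred, since the columns sum to between 674328 and 739335, and TPM with rows left out would look alike. FPKM keeps no depth, so the depth is unknown and no counting interval is given. Of 344810 rows, the 53777 Ensembl rows were used.

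A minimum of 1 FPKM in 2 or more libraries left 12953 genes, whose log2(FPKM + 1) values were compared in limma 3.58.1 in R 4.3.3 (eBayes with a trend, 2 residual degrees of freedom), MYC knockdown minus wild type, adjusted by Benjamini-Hochberg over all genes at a threshold of 0.05. The code of the fit was run on simulated data with an equal spread for all genes and both groups. The knockdown and wild-type pairs here differ in spread, so that run does not cover this setting. A gap is MYC knockdown replicate 2 minus replicate 1 on that scale. Groups do not overlap where both values of a group lie above both of the other.

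The members and lists were chosen with earlier results of these data known. Named genes are the members, MYC, the 3 genes nearest to MMP1 and MMP9, the cluster genes and up to 4 genes per list with the highest mean FPKM. MMP2, TIMP4, RECK, COL4A1, RUNX2, MX2, IFI27, IFI44L, OAS2, RSAD2, XAF1, the genes overlapping a member and single marker genes lie outside this rule. They were chosen after the values were seen. Of 213 list genes, 212 were found, 1 of them by its Ensembl ID. A list gene is not reported here. The flanking genes of the cluster were also chosen after the values were seen. Alternatives were another pseudocount, other filters and scalings, protein-coding rows, a replicate block, an adjusted p of 0.10 and each library left out.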

Additional observations from a re-analysis of the deposited data

How the results depend on the processing

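At 0.05 limma called 0 genes in the analysis as reported, and also with a pseudocount of 0.1, no filter, equal column sums and quantile normalization. It called 310 genes with a mean of at least 5 FPKM, 308 with the median of ratios, 385 among protein-coding rows alone and 1349 at an adjusted p of 0.10, while leaving out 1 library gave 3384 without MYC knockdown replicate 1, 3413 without replicate 2 and 0 without either wild-type library. The larger counts came without a knockdown library, where the spread rests on the close wild-type pair and the lone knockdown library is assumed to vary like it. Of 83 recomputed log2 changes of the 7 members tested, 2 reversed: without MYC knockdown replicate 2, MMP1 was at −0.11 (−0.11 to 2.89 over the libraries left out) and MMP14 at −0.029 (−0.029 to 0.42). Another 5 passed 0.05 in limma, namely TIMP1, TIMP2, TIMP3 and MMP14 without MYC knockdown replicate 1 and TIMP2 without replicate 2. As each library was left out, 1 to 2 of the members tested lay below wild type without overlap (30.9% to 42.5% of all genes) and 4 to 6 above (40% to 51.8% of all genes). Both shares were larger than with all libraries because fewer values are compared. Those below were MMP9 and, without MYC knockdown replicate 2, MMP1, both picked on these values. MMP13, tested only through the group where it is high, was counted above, so the counts are a description. The gap of MMP9 was 2.19 and reached 3.26 with a pseudocount of 0.1, and that of TIMP3 was 0.98 and reached 1.06 with quantile normalization. With the replicate block, which cannot move a log2 change in this balanced design, 0 genes were called. The limma adjusted p of TIMP2 rose from 0.0750 to 0.0897 and that of MMP13 from 0.282 to 0.316. Those of MMP14, TIMP1 and TIMP3 fell to 0.407, 0.196 and 0.176. Over genes, the difference between replicates 1 and 2 had a correlation of −0.0059 between the groups. With 1 difference per group and a close wild-type pair, this cannot show whether same-numbered libraries were handled together.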
